A study of Mus musculus with 12 samples.

Results

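Neurogranin, calmodulin and Ca2+/calmodulin-dependent protein kinase II (CaM kinase II) were followed through 8 genes of the amygdala transcriptome of female C57/BL6 mice. The genes were selected by symbol, through the Ensembl identifiers of the GENCODE M21 annotation, from 47729 deposited genes, and each symbol matched 1 gene. They are Nrgn, Calm2, Calm3, Camk2a, Camk2b, Camk2d, Camk2g and Pcp4. The set was chosen by earlier results of the same counts, in which Nrgn had stood out between anxiety groups, so the group values below are a description and carry no test of their own.

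Bilateral amygdalae of 12 untreated, age-matched female mice of this inbred strain gave 1 stranded mRNA library each. Beforehand each mouse had been through the elevated plus maze (open-arm time and total entries), the light/dark box (time and distance in the light) and the three-chamber social interaction test (the box:zone ratio, for direct against distant contact with a stranger mouse). The labels put 3 mice in the less anxious group (mice 3, 7 and 12), 4 in the anxious group (mice 1, 4, 8 and 11) and 4 in the more anxious group (mice 2, 6, 9 and 10), and give mouse 5 no group. The study removed mouse 5 as an outlier in a principal component analysis of its expression data. The study made these groups from the tertiles of the second principal component of the same expression data, a component picked for its correlation with behavior, so groups and counts are not independent. The groups do not follow each measure: mouse 6, labelled more anxious, spent the highest share of time in the light (46.6%) of the 11 mice with a group.

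Calmodulin is the small Ca2+ sensor that passes synaptic Ca2+ signals on to enzymes. Neurogranin (Nrgn) and Purkinje cell protein 4 (Pcp4) are short neuronal proteins that bind calmodulin through an IQ motif and so set how much of it is free. CaM kinase II is the abundant postsynaptic kinase that calmodulin switches on and that long-term potentiation requires, and its subunits are encoded by Camk2a, Camk2b, Camk2d and Camk2g.

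The IQ motif is shown because it is the feature that ties Nrgn and Pcp4 to calmodulin. The same motif occurs in Pcp4l1 (Pcp4-like 1) and in Gap43, whose stretch is not printed. The coding stretches below run 5′ to 3′ on the sense strand of the GENCODE M21 transcripts, cover the 11 residues of each motif, and have the codons of the opening isoleucine and glutamine in capitals.
Nrgn: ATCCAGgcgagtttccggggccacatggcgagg
Pcp4: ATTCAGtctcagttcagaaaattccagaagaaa
Pcp4l1: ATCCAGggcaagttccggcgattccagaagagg
The motif spans residues 33 to 43 of the 78 of neurogranin and residues 46 to 56 of the 62 of the Pcp4 protein. In Pcp4l1 it spans residues 52 to 62 of 68, and in Gap43 residues 38 to 48 of 227.

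On the mm10 (GRCm38) build, Nrgn lies at chr9:37544492-37552904 on the minus strand. Calm2 lies at chr17:87433412-87446935, Calm3 at chr7:16915379-16924114, Camk2b at chr11:5969644-6066362, Camk2d at chr3:126596302-126846326, Camk2g at chr14:20734875-20794088 and Pcp4 at chr16:96467606-96525793. Camk2a lies on chromosome 18. Of the 75-base stretches of the annotated transcripts, the length of 1 read, 0% of those of Nrgn and of the CaM kinase II genes occur in a transcript of another gene. The share was 2.88% for Calm2 (pseudogenes Gm7308 and Gm15720), 1.13% for Calm3 (Gm5881) and 15.2% for Pcp4 (Igsf5), so the count of Pcp4 is the least certain of the 8. Camk2d overlaps an antisense gene, Gm15551, and it is not stated whether the counting used the strand.

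Totals ran from 31745630 to 45142355 estimated counts per mouse. Pan-neuronal, glutamatergic and GABAergic marker genes were detected in each of the 11 mice. The summed level of the striatal-type markers ran from 132 to 550 CPM (the count scaled to the size of the library) and was highest in mouse 12, and that of the pituitary markers ran from 1.17 to 54.1 CPM and was highest in mouse 4. The source of these differences was not tested. In bulk tissue, fewer cells of a type and less RNA per cell cannot be told apart.

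**Figure D1:**
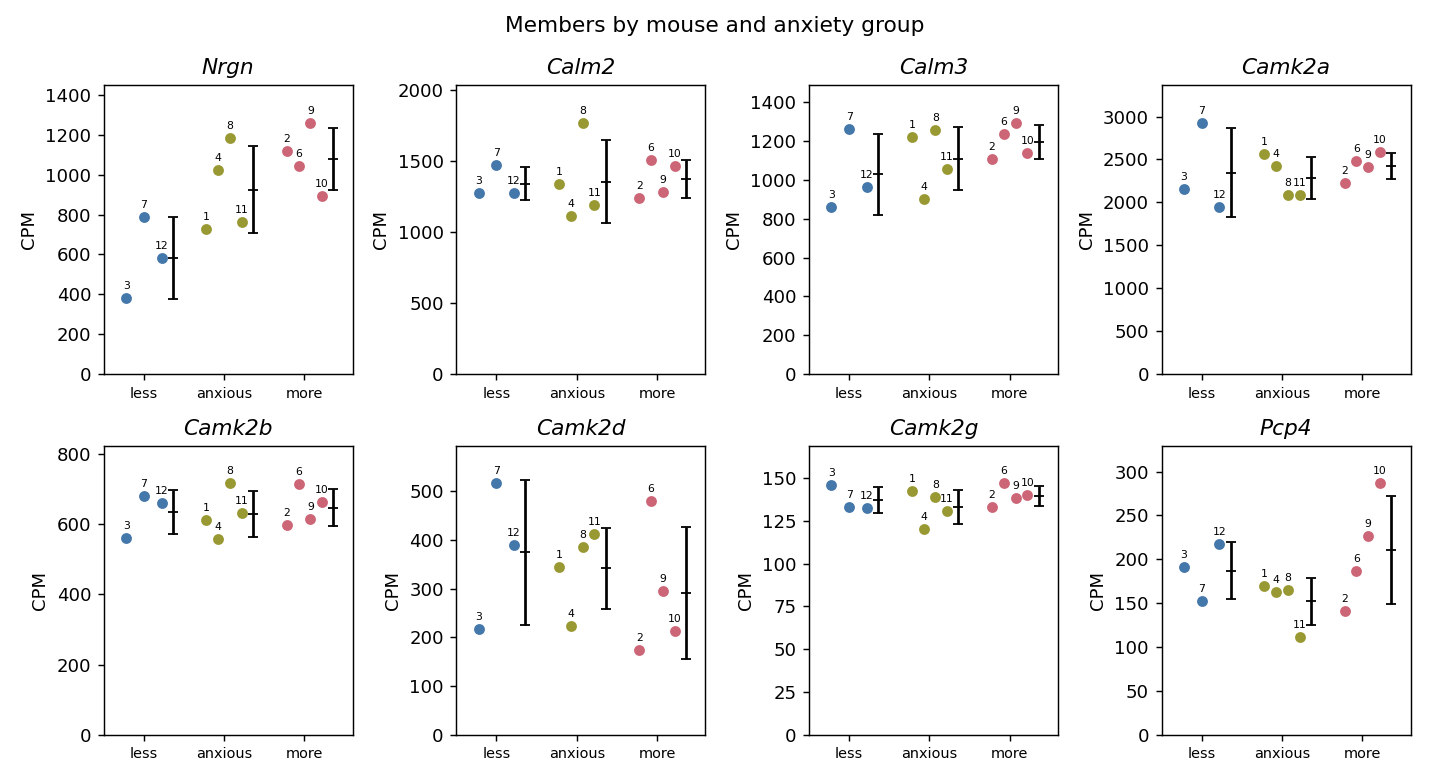
Each panel plots the CPM of 1 gene (vertical axis, from 0) in the 11 mice by anxiety group, with mouse numbers beside the points and the mean ± SD of each group in black. Nrgn is the 1 gene of the 8 whose less and more anxious mice do not overlap.

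Compared per kilobase of the longest coding transcript, Calm2 was the most abundant of the 8 genes at 1125 ± 153 CPM per kb (SD, n = 11). Nrgn followed at 611 ± 186, Calm3 at 488 ± 67.1 and Camk2a at 474 ± 57.7 CPM per kb, and these neighbors did not differ beyond their spread. Pcp4 stood at 285 ± 74.1, Camk2b at 158 ± 13.6, Camk2d at 60.1 ± 20.9 and Camk2g at 36.9 ± 2.08 CPM per kb. The ranges of Camk2a and Pcp4, of Pcp4 and Camk2b, and of Camk2d and Camk2g overlapped over the mice, whereas those of Calm2 and Nrgn and of Camk2b and Camk2d did not. Per kilobase of all annotated exons the order of the last pair turned, with 14.8 CPM per kb for Camk2d, whose exons add up to 22.5 kb, and 21.3 for Camk2g.

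The genes also differed in how much they varied between mice that are close to genetically identical. The coefficient of variation of the CPM was 34.8% for Camk2d, 30.4% for Nrgn and 26.0% for Pcp4, against a median of 11.2% over the 2066 genes with a mean of at least 100 CPM. Camk2g varied least, by 5.65%, and the others lay between 8.58% (Camk2b) and 13.7% (Calm3). Camk2d thus ranged 2.97-fold and Nrgn 3.32-fold between its lowest and highest mouse, and Camk2g 1.22-fold.

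Nrgn, the IQ-motif protein of principal neurons of the forebrain, had 380, 787 and 580 CPM in the less anxious mice 3, 7 and 12. It had 727, 1023, 1185 and 762 CPM in the anxious mice 1, 4, 8 and 11, and 1120, 1045, 1261 and 891 CPM in the more anxious mice 2, 6, 9 and 10. The lowest more anxious mouse lay above the highest less anxious mouse, while the anxious group overlapped both. The mean was 582 ± 204 CPM (SD, n = 3) in less anxious, 924 ± 218 (n = 4) in anxious and 1079 ± 154 (n = 4) in more anxious mice. With the first principal component as a covariate, the log2 fold change was 0.86 (SE 0.17) for more against less anxious, 0.57 (SE 0.17) for anxious against less anxious and 0.29 (SE 0.16) for more against anxious.

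In edgeR's quasi-likelihood fit, 0 of the 8 members reached a Benjamini-Hochberg adjusted p under 0.05 across the 3 groups, where 0.00742% of the 26963 genes tested did. At an unadjusted p under 0.05 the count was 1 of 8, Nrgn, against 6.35% of all genes. By DESeq2's likelihood ratio test, the tool of the study, Nrgn was called (adjusted p = 0.0031) and the other 7 members were not, against 1.3% of all genes given an adjusted p. The adjusted p of Nrgn by edgeR was 0.338, and Nrgn held rank 75 by p. In simulated counts the likelihood ratio test made false calls above its nominal share, more than edgeR did. Of the genes with a mean of at least 1 CPM, 5.27% were higher in more anxious than in less anxious mice without overlap, as Nrgn was, and 4.75% were lower. Since this contrast chose Nrgn, nothing is read from these counts.

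**Figure D2:**
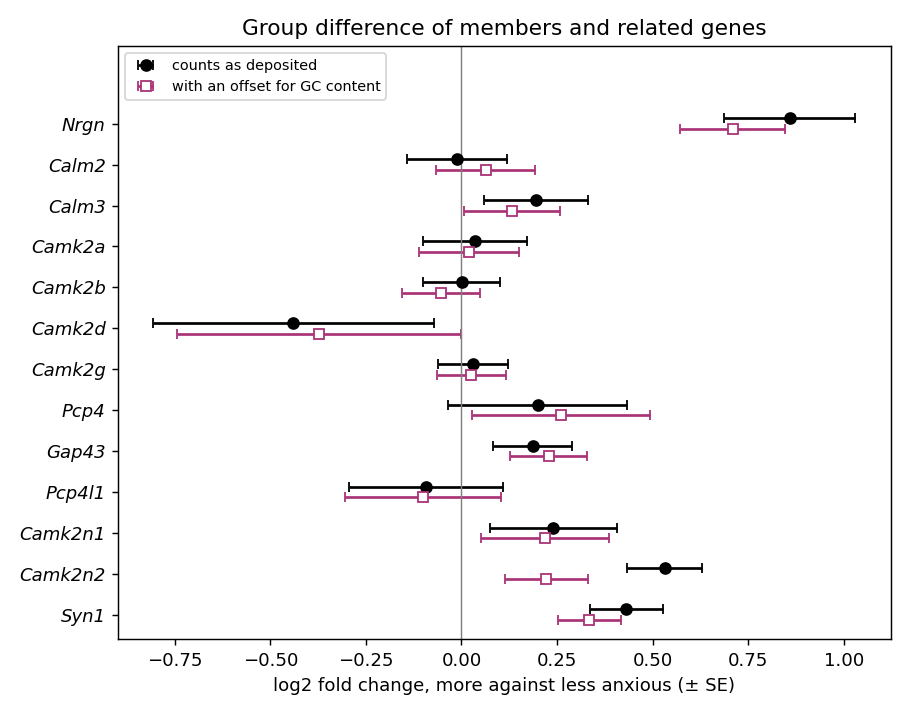
Points give the log2 fold change of more against less anxious mice (horizontal axis) and bars its SE from edgeR's fit over 11 mice, for the 8 members and 5 related genes, with the counts as deposited (filled) and with an offset for GC content (open). Nrgn lies at 0.86 and 0.71, Camk2n2 at 0.53 and 0.22, and the bars of Camk2a, Camk2b and Camk2g cross 0 in both.

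The other IQ-motif genes had smaller group differences, which were not tested against that of Nrgn. Pcp4 had 191, 153 and 218 CPM in less anxious, 170, 162, 165 and 112 in anxious, and 141, 187, 226 and 286 in more anxious mice. The groups of Pcp4 overlapped, and its log2 fold change of more against less anxious was 0.20 (SE 0.23). It ran from 0.0083 without mouse 10 to 0.34 without mouse 2, and was 0.06 without mouse 7 and 0.32 without mouse 12. The log2 fold change was 0.19 (SE 0.10) for Gap43, the growth-cone and presynaptic protein GAP-43, and -0.09 (SE 0.20) for Pcp4l1, and neither passed the test (edgeR adjusted p = 0.857 and 0.873).

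The calmodulin genes Calm2 and Calm3 encode the same protein. Calm2 had 1272, 1474 and 1273 CPM in less anxious, 1334, 1115, 1769 and 1192 in anxious, and 1236, 1510, 1279 and 1462 in more anxious mice. The 3 groups overlapped throughout, and the log2 fold change of more against less anxious was -0.01 (SE 0.13). Calm3 had 860, 1261 and 962 CPM in less anxious, 1218, 903, 1258 and 1057 in anxious, and 1106, 1234, 1294 and 1139 in more anxious mice. The less anxious mouse 7 lay within the range of the more anxious mice, and the log2 fold change was 0.19 (SE 0.14). It was 0.36 without mouse 7, 0.11 without mouse 9 and 0.13 without mouse 3.

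Among the CaM kinase II subunits, Camk2a (the alpha subunit of excitatory forebrain neurons) had 2158, 2929 and 1946 CPM in less anxious, 2567, 2424, 2082 and 2084 in anxious, and 2224, 2483, 2416 and 2583 in more anxious mice. Both the lowest and the highest mouse were less anxious, and the log2 fold change was 0.04 (SE 0.14). It was 0.28 (SE 0.14) without mouse 7 and -0.07 (SE 0.14) without mouse 12. Camk2b, the actin-binding beta subunit, ran from 562 to 679 CPM in less anxious, from 559 to 716 in anxious and from 597 to 715 in more anxious mice, with a log2 fold change of 0.00 (SE 0.10). Camk2g, the gamma subunit, ran from 132 to 146, from 120 to 143 and from 133 to 147 CPM in the same groups, with a log2 fold change of 0.03 (SE 0.09).

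Camk2d, the delta subunit that is also abundant in heart, was the most variable member. It had 218, 516 and 389 CPM in less anxious, 345, 224, 385 and 412 in anxious, and 174, 480, 296 and 214 in more anxious mice. The groups overlapped over most of their range, and the log2 fold change of more against less anxious was -0.44 (SE 0.37). It was -0.67 without mouse 6, -0.25 without mouse 2 and -0.28 without mouse 7. The adjusted p by edgeR was at least 0.900 for each member other than Nrgn.

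The balance of the subunits within a library does not depend on the scaling between mice. Camk2a took 68.0% ± 3.83 (SD, n = 11) of the CaM kinase II counts, Camk2b 18.5% ± 1.75, Camk2d 9.50% ± 2.86 and Camk2g 3.98% ± 0.407. The Camk2a share was 67.0% ± 4.18 in less anxious, 67.4% ± 4.86 in anxious and 69.4% ± 3.08 in more anxious mice. The difference of 2.38 percentage points between more and less anxious mice was smaller than the SD of either group, and was -0.01 without mouse 12. The Camk2d share ran from 5.55% in mouse 2 to 12.6% in mouse 11.

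**Figure D3:**
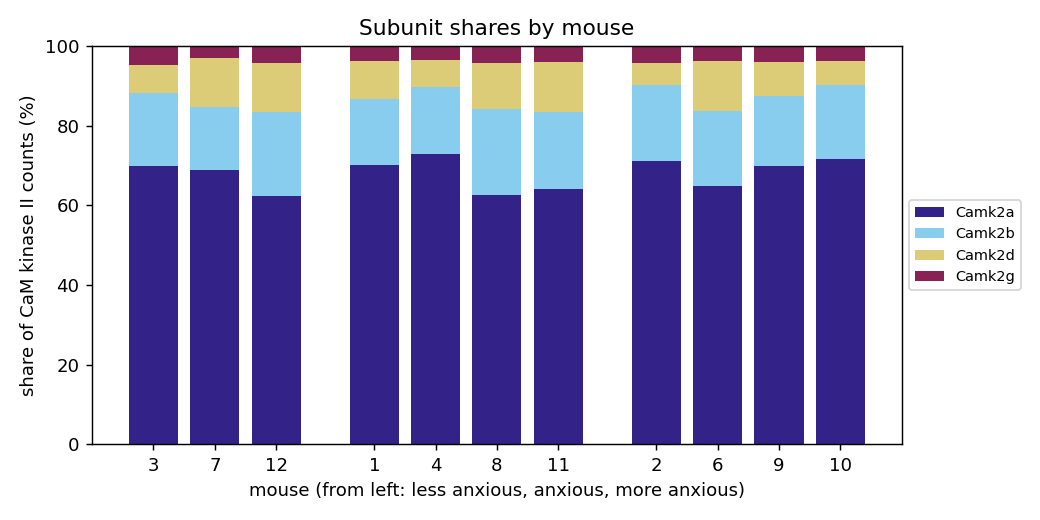
Stacked bars give the share (%) of the CaM kinase II counts on each of the 4 subunit genes in each of the 11 mice, ordered by anxiety group. Camk2a takes between 62.2% and 72.9%, and the Camk2d band runs from 5.55% to 12.6%.

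The other genes of the pathway were 40 genes (calmodulin binders, kinases, inhibitors, phosphatases, cyclases and substrates), of which 39 had enough reads to be tested. By edgeR 0 of them passed and 6 had an unadjusted p under 0.05, where 0.00742% and 6.35% of all genes did, and 21 had a positive and 18 a negative log2 fold change of more against less anxious. Their median log2 fold change was 0.01, against 0.00 over all genes tested and 0.03 over the 8 members. DESeq2 called 2, Camk2n2 and Syn1, where it called 1.3% of all genes. Camk2n2, an inhibitor of CaM kinase II, had 78.8, 79.9 and 70.0 CPM in less anxious, 88.3, 96.5, 117 and 82.6 in anxious, and 117, 122, 110 and 106 in more anxious mice. Its less and more anxious mice did not overlap, and the log2 fold change was 0.53 (SE 0.10; edgeR adjusted p = 0.263, DESeq2 adjusted p = 0.0012). Both Nrgn and Camk2n2 are in the gene list that the study chose on these samples. Syn1, the synaptic vesicle protein synapsin I, is named after its values were seen and had a log2 fold change of 0.43 (SE 0.10; edgeR adjusted p = 0.431, DESeq2 adjusted p = 0.0040). Its level ran from 410 to 430 CPM in less anxious and from 505 to 631 CPM in more anxious mice, also without overlap. Of all genes with a mean of at least 1 CPM, 5.27% were higher in this way. The related inhibitor Camk2n1 overlapped between groups, with a log2 fold change of 0.24 (SE 0.17).

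GC content moved with the group difference. Its median was 55.7% among genes higher without overlap in more anxious mice, 45.9% among those lower, and 49.8% over all genes of at least 1 CPM. Nrgn has 59.1% GC, pooled over its annotated transcripts as for every gene here, above 94.1% of those genes. Camk2n2 has 63.9%, above 99.5%. Calm2 (43.6%), Camk2d (44.9%) and Pcp4 (45.1%) lie below the median, and Calm3 (56.4%) and Camk2b (56.1%) above it. With an offset for GC content the log2 fold change of Nrgn was 0.71 (SE 0.14) and that of Camk2n2 was 0.22 (SE 0.11). Of the others, it was 0.33 (SE 0.08) for Syn1, 0.13 (SE 0.13) for Calm3, -0.37 (SE 0.37) for Camk2d and 0.26 (SE 0.23) for Pcp4, and 0 members passed the adjusted threshold with this offset. No such offset was fitted for the behavior measures.

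Some neuronal and glial markers also differed between the groups. Of the 6 glutamatergic markers 5 had a positive log2 fold change of more against less anxious, as had the 5 pan-neuronal markers. It was negative for 5 of the 6 GABAergic and for the 7 striatal-type markers, with medians of -0.18 and -0.53. Neurod2, Rbfox3 and Stmn2, markers of excitatory or all neurons, were higher in every more anxious than in every less anxious mouse, and Slc1a2 (astrocytes) and Cx3cr1 (microglia) were lower. The summed level of the 6 glutamatergic markers ran from 860 to 1282 CPM in less anxious and from 1128 to 1653 CPM in more anxious mice, and that of the 5 pan-neuronal markers from 3647 to 3918 and from 3805 to 4792 CPM. None of these 5 genes had an edgeR adjusted p under 0.05. Of the 5 choroid plexus markers 4 had a negative and 1 a positive log2 fold change of more against less anxious, and of the 5 pituitary markers 3 and 2. Those lower without overlap were Kcnj13, at 4.20 against 0.459 CPM, Prl, at 1.06 against 0.0700 CPM, and Gh. The part of cell composition in the level of Nrgn was not tested.

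The promoters of Nrgn and Camk2n2 are shown because both genes were higher without overlap and are in the study's list. Syn1 was also higher without overlap, and its promoter is not shown. They are RefSeq sequences on GRCm38.p6, each 5′ to 3′ on the gene's strand from 250 bases before to 50 after the start, with motifs found on either strand in capitals. The motif searched as the GC box was GGGCGG. The core of the cyclic AMP response element (CRE) was searched as TGACG. The CCAAT box and the TATAAA box were searched by the letters of their names, and neither promoter holds the latter. Neighboring GC boxes can touch.
Nrgn, chr9:37552696-37552995, minus strand: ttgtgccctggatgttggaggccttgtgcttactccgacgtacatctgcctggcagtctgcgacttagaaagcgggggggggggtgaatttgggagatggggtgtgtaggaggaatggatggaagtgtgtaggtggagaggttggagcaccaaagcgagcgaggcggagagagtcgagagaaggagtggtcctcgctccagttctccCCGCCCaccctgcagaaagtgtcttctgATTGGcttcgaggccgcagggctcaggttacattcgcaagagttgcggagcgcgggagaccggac
Camk2n2, chr16:20621229-20621528, minus strand: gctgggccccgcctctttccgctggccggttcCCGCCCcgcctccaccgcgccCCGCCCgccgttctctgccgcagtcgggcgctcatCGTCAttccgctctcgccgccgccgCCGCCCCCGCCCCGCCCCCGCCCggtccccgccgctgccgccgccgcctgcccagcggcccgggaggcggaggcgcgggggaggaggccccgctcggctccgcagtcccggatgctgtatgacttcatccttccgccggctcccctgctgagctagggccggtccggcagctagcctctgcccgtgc
The Nrgn window has 59.3% GC, 1 GC box and 1 CCAAT box, and that of Camk2n2 has 79% GC, 6 GC boxes and 1 CRE core. Of 32851 RefSeq promoters, 35.7% hold a GC box, 37.4% a CCAAT box, 20.8% a CRE core and 13.6% a TATAAA box, and their median GC content is 52.7%. The Nrgn window thus lies at a GC content above 68.9% of promoters, and that of Camk2n2 above 98.6%. Of the members, 5 matched the table (Nrgn, Calm3, Camk2b, Camk2d and Pcp4).

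Over the 11 mice, the genes with the log2 CPM most like that of Nrgn among 15890 were Rnf126 (Pearson r = 0.98), Nutf2-ps1 (r = 0.97), Ubald2 (r = 0.97), Zfp414 (r = 0.96) and Fbrsl1 (r = 0.96). Of these, 4 have a GC content above that of 89.1% of genes or more, Nutf2-ps1 (47.6%) being the exception. None of the 5 is a member, and the libraries share their depth and composition across genes. Between the members, r with Nrgn ran from -0.22 (Camk2g) to 0.64 (Calm3), and the closest pair was Calm2 and Camk2b (r = 0.83). Camk2d and Camk2b had r = 0.70.

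The behavior measures come from the labels and not from the counts, and each of the 7 was tested as a standardized number without the groups, over 11 mice and over 10 for the 3-min ratio. The groups and the measures are not independent, since the groups came from a component picked for its correlation with behavior. Nrgn was chosen on those groups, so its slopes below are a description and no separate support. Not one of the 8 members passed edgeR's adjusted p for any measure. Over all genes the share called was 0.00742% for time in the light, 0% for distance in the light, open-arm time and total entries, 0.015% for the 3-min ratio, 0.0111% for the 5-min ratio and 0.0223% for the 10-min ratio. DESeq2, fitted on all of these mice, called no member either, where it called 0.0688% of genes for time in the light, 0.127% for distance, 0.181% and 0.244% for the plus maze measures open-arm time and total entries, and 0.986%, 0.197% and 0.58% for the ratios at 3, 5 and 10 min. At an unadjusted p under 0.05, Nrgn passed for distance in the light (5.8% of all genes passed), and Camk2d for open-arm time (5.84%), total entries (6.97%) and the 3-min ratio (7.65%). No member passed for time in the light (3.55%), the 5-min ratio (6.56%) or the 10-min ratio (8.05%).

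**Figure D4:**
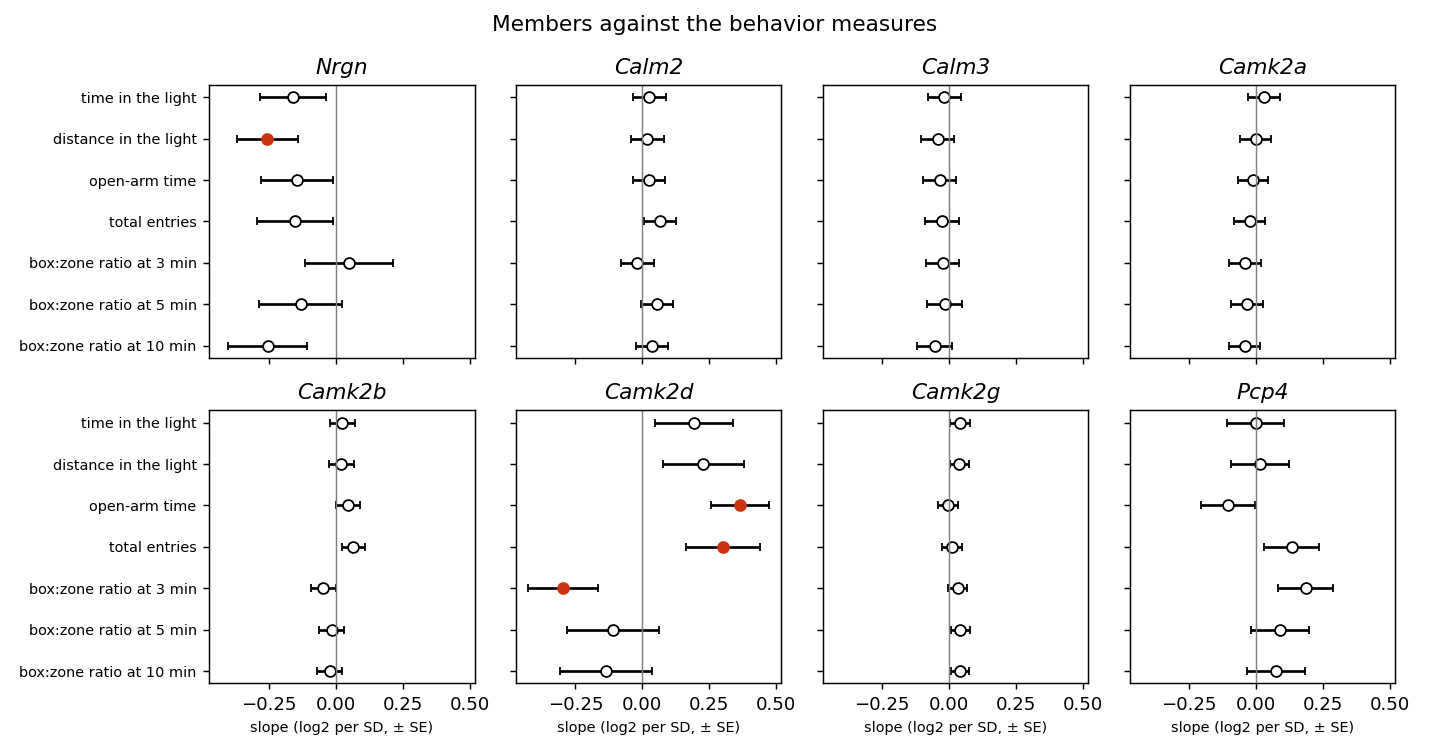
Each panel gives, for 1 member, the slope of log2 expression per SD of each of the 7 behavior measures with its SE, from edgeR's fits; filled red points have an unadjusted p under 0.05. The 4 filled points are Nrgn against distance in the light and Camk2d against open-arm time, total entries and the 3-min ratio, and no point passes the adjusted threshold.

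Nrgn had a slope of -0.25 (SE 0.11) on the log2 scale per SD of distance in the light, which did not pass the adjusted threshold (edgeR p = 0.046, adjusted p = 0.848, n = 11). The mice with the least distance in the light, mouse 2 (16.6%) and mouse 9 (19.3%), had 1120 and 1261 CPM, and mice 3 (37.8%) and 12 (34.5%) had 380 and 580 CPM. Mouse 6 went against this order, with the most distance in the light (41.9%) and 1045 CPM. Without mouse 6 the slope was -0.49 (SE 0.10, edgeR adjusted p = 0.091), it was -0.17 without mouse 3, and with mouse 5 added it was -0.15 (SE 0.14). Mouse 5 is the library that the study removed as an outlier, so fits with it added are not fits with an ordinary further replicate. The slope for time in the light was -0.16 (SE 0.12). It was -0.60 (SE 0.12, edgeR adjusted p = 0.102) without mouse 6, -0.10 without mouse 3 and -0.09 with mouse 5 added. DESeq2's test without mouse 6, added after seeing the data, gave Nrgn an adjusted p of 0.00082, where it called 1.81% of all genes and no other member. Mouse 6 was left out for having the most time in the light, and it went against the order of Nrgn. With all 11 mice the same test called no member and 0.0688% of genes, so nothing is read from the smaller p. The slope was -0.15 (SE 0.13) for open-arm time and -0.15 (SE 0.14) for the number of entries, and ran from -0.27 (without mouse 6) to -0.09 (without mouse 9) and from -0.22 (without mouse 1) to -0.08 (without mouse 12) on leaving out a mouse. For the box:zone ratio it was 0.05 (SE 0.16) at 3 min, -0.13 (SE 0.15) at 5 min and -0.25 (SE 0.15) at 10 min, and its sign changed when single mice were left out.

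**Figure D5:**
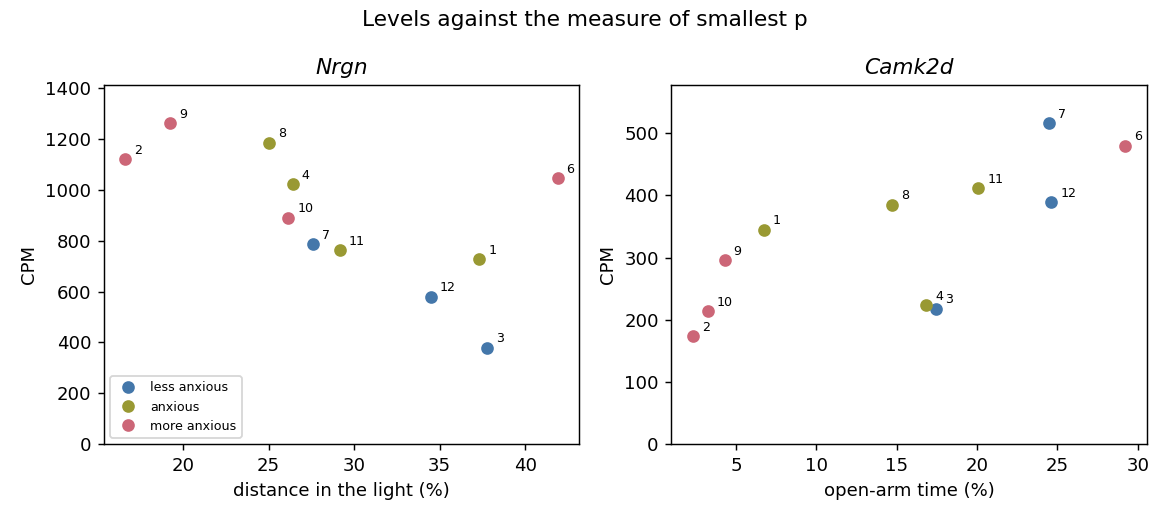
The left panel plots the CPM of Nrgn against distance in the light (%) and the right panel that of Camk2d against open-arm time (%), 1 point per mouse, colored by anxiety group and numbered. Mouse 6 stands at 41.9% and 1045 CPM, apart from the falling order of Nrgn, and mice 3 and 4 lie at the low side of Camk2d for their open-arm time.

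Camk2d had a slope of 0.37 (SE 0.11) on the log2 scale per SD of open-arm time, which did not pass the adjusted threshold either (edgeR p = 0.0054, adjusted p = 0.660, n = 11). The mice with the least open-arm time, mice 2 (2.33%), 10 (3.25%) and 9 (4.30%), had 174, 214 and 296 CPM. Those with the most, mice 6 (29.2%), 12 (24.6%) and 7 (24.5%), had 480, 389 and 516 CPM. In between, mice 3 (17.5%) and 4 (16.8%) had 218 and 224 CPM, as low as mice with the least open-arm time. The slope stayed between 0.30 and 0.41 on leaving out single mice. The slope of Camk2d was 0.30 (SE 0.14, edgeR p = 0.049, adjusted p = 0.715, n = 11) for total entries. It was -0.30 (SE 0.13, edgeR p = 0.044, adjusted p = 0.635, n = 10) for the 3-min ratio. The adjusted threshold was missed in these 3 cases, and the 3 measures come from the same mice.

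For the other members, the measure with the smallest unadjusted p gave small slopes. They were 0.06 (SE 0.06) for Calm2 and 0.07 (SE 0.04) for Camk2b against total entries, and -0.05 (SE 0.07) for Calm3 and -0.04 (SE 0.06) for Camk2a against the 10-min ratio. They were 0.04 (SE 0.04) for Camk2g against the 5-min ratio and 0.19 (SE 0.10) for Pcp4 against the 3-min ratio. Of the 39 pathway genes 0 passed edgeR's adjusted p in any of the 7 measures, where at most 0.0223% of all genes did. Between 2 (time in the light and the 5-min ratio) and 8 (the 3-min ratio) had an unadjusted p under 0.05. Over all genes that share was 3.55% for time in the light, 6.56% for the 5-min ratio and 7.65% for the 3-min ratio. DESeq2 called 1 pathway gene in each of 3 measures. Grin2b, an NMDA receptor subunit that binds CaM kinase II, was called for time in the light, where 0.0688% of all genes were. Lrrc7, a postsynaptic scaffold protein, was called for the 3-min ratio (0.986% of all genes). Ppp3cb, a catalytic subunit of calcineurin, was called for the 10-min ratio (0.58% of all genes). Grin2b had 532 CPM in mouse 6, the mouse with the most time in the light, and between 256 and 327 CPM in the other 10 mice, and without mouse 6 its DESeq2 adjusted p was 0.658.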

How the data were processed

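Bilateral amygdala mRNA of 12 mice was read in a single run, single-end, at 75 bp. After trimming and a STAR alignment to mm10 for quality control, the authors estimated transcript abundance with Salmon, summed to genes with tximport. The authors deposited these estimated counts (expected counts) as whole numbers, without normalization. Versions, annotation release and strand setting are not given in the sources used here. The members and gene lists were chosen with earlier results of these data known.

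Fits were made with edgeR 4.0.16 and DESeq2 1.42.0 under R 4.3.3, and tables and figures with pandas 2.3.3 and matplotlib 3.10.9 under Python 3.11.15. Genes with at least 10 reads over 11 mice were tested with edgeR's robust quasi-likelihood F-test and TMM factors, with Benjamini-Hochberg adjustment (0.05). PC1 of variance-stabilized counts (20.2% of the variance) was the covariate of the group fit, and the behavior fits had none. DESeq2's likelihood ratio test of the same models was an alternative. CPM used TMM factors, and log2 CPM a prior count of 2. Each mouse is 1 replicate. Named genes were the members, pathway genes past the test, Gap43, Pcp4l1, Camk2n1, Camk2n2, the 5 genes most correlated with Nrgn, and markers that moved with a result. Some items that these rules select are not reported here. The fits were tested on simulated counts, with the same spread between mice beyond counting noise for each gene, unlike the real counts. There edgeR's false calls stayed within the limit set for them, whereas DESeq2's exceeded it in the draw used. That limit was then applied to edgeR alone, and the DESeq2 step was checked against DESeq2's formula interface, which gave the same p-values. Alternatives covered size factors, count filter, covariate, group coding, GC offset, ranks, mouse 5 and each mouse left out.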

Additional observations from a re-analysis of the deposited data

Results flagged for a closer look

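Pcp4 in the anxious mouse 11 was 112 CPM, below the 162 to 170 CPM of the other 3 anxious mice, a gap of 0.869 of the range of that group. It was the 1 flag among 20 groups of 4 mice examined for a single distant sample, and chance flags about 1 in 20.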

How the results depend on the processing

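The count of members called was 0 across the groups and for each of the 7 measures under the alternatives fitted with edgeR. DESeq2's likelihood ratio test called 1 member (Nrgn) and 2 pathway genes across the groups and 1 pathway gene each for time in the light, the 3-min ratio and the 10-min ratio. Without mouse 6, an alternative added after seeing the data, DESeq2 called 1 member (Nrgn) and 0 pathway genes for time in the light. Nothing is read from that call. The log2 fold change of Nrgn ran from 0.65 (without mouse 9) to 0.98 (without mouse 7), and the difference in the Camk2a share from -0.01 to 3.87 percentage points, when single mice were left out. Slopes that changed sign were those of Nrgn for the 3-min ratio (-0.15 without mouse 9 and -0.0013 without mouse 12), the 5-min ratio (0.14 without mouse 3) and the 10-min ratio (0.0687 without mouse 3), and of Calm3 for the 10-min ratio (0.0166 on ranks and 0.11 without mouse 3). The cause was not tested. Of 684 alternative values, 670 kept direction and side of the threshold or moved by less than the spread. A slope counted as kept whatever its size if its sign and side of the threshold stayed. That of Nrgn for time in the light ran from -0.60 to -0.10 when single mice were left out and was counted as kept. The tally therefore says little about how stable the sizes are. No paired analysis was possible because replicate numbers follow the order of the samples. The groups hold 3 or 4 mice, and the errors given are those between mice, at the depths stated above.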
